A study of Danio rerio with 17 samples.

Results

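The genes described here encode transcription factors that pattern the embryonic brain or set neural cell identity, read in the brains of adult zebrafish after domoic acid (DA) or vehicle. They were chosen by symbol: names that start with pax, lhx, sox, otx, dlx, nkx, emx, pou, irx, meis, pbx, zic, tbx, gbx, neurod, ascl or eomes, with the prefix of the sine oculis family (such as six7), or with fox followed by a letter and a digit. The rule took 151 of the 8793 genes on the array, and no measured value entered it. It also took 5 genes that only share a prefix (paxbp1, paxip1, pbxip1a, pbxip1b and tbxas1), which leaves 146 by family. Where several probe sets read a gene, the brightest over the 17 arrays stood for it, so 195 probe sets were reduced to 151.

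DA is a diatom toxin that activates ionotropic glutamate receptors of the kainate and AMPA classes. Adult fish of the AB strain received DA at 1.1 µg per g of body weight by injection into the body cavity, or the phosphate-buffered saline vehicle alone. Brains were taken 24, 48 or 168 h later, and each RNA sample pooled 3 to 4 brains, so an array shows a mean over fish. DA brains had 3 arrays at each time. Control brains had 3 arrays at 24 h, 2 at 48 h and 3 at 168 h.

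Patterning factors divide the neural tube into territories. Emx, Dlx and Eomes mark parts of the telencephalon, Lhx, Nkx2, Irx and Six3 parts of the diencephalon and hypothalamus, and Otx2, Pax2, Gbx and Zic the midbrain, its boundary with the hindbrain, and the cerebellum. SoxB1 factors (Sox1, Sox2, Sox3) hold progenitors undifferentiated, whereas NeuroD and SoxC factors (Sox4, Sox11) act as neurons form and mature. Many stay active in the adult, and the adult zebrafish brain keeps dividing radial glia along its ventricles.

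The values were log2 signals, so a difference of 1 is a doubling. Neuronal, radial glial and oligodendrocyte markers were bright on every array. One array stood apart: DA replicate 1 at 24 h had a mean of 5.74 over 17 blank probe sets, against 4.94 to 5.18 on the other arrays. Of the 89 members dimmer than the median gene, 44 had their highest value on it, and 29.1% of all members did, against 20.9% of all genes. The median member below that level sat 0.20 above its own mean on this array and the median brighter member 0.28 below. Control replicate 3 at 24 h had the steepest fall from the 3′ to the 5′ probe set of GAPDH, a sign of RNA quality: 4.63 on the log2 scale, where the other arrays reached no more than 3.70. For some results at 24 h, but not all, the value without 1 or both of these arrays is given beside them. Some members named below had means no higher than the blank probe sets of any array, near the floor. They were tbx20 (4.41), nkx2.1 (4.45), dlx2b (4.50), sox17 (4.55), pou5f3 (4.70), lhx1b (4.82), tbx4 (4.87), sox32 (4.89) and six7 (4.94).

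**Figure D1:**
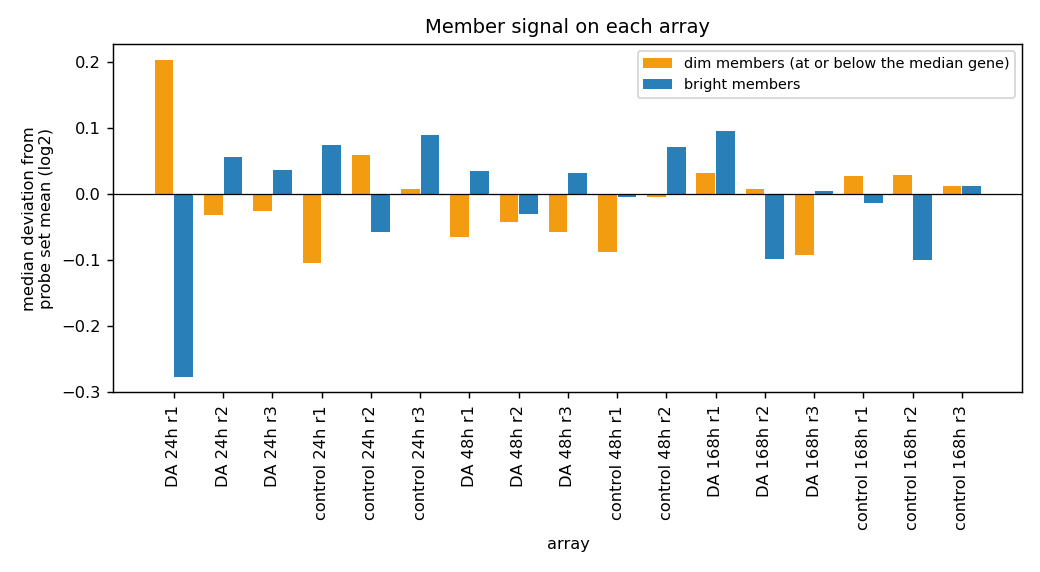
Median deviation of dim members (89 genes at or below the median gene, orange) and bright members (62 genes, blue) from each probe set's mean over 17 arrays, in log2 units, for every array. DA replicate 1 at 24 h shows the widest split, with 0.20 for dim and -0.28 for bright members.

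The members were no more variable than other genes. The median SD over the 17 arrays was 0.19 for members and 0.19 for all genes, and the median range of the 6 group means was 0.30 for members, against 0.32 for all genes. Group means lay more than 1 apart in 2 members, and 23 of 151 members had a range over 0.5. No member passed an adjusted p of 0.05 (limma, Benjamini-Hochberg over 15502 probe sets) for DA against control at any time. Time after injection did separate a few members: 4 were called among control brains between 24 and 168 h. Of these, sox11b rose and sox9b and lhx9 fell, and each of these 3 calls was lost in some single-array removals. In pooled tissue, fewer cells of a type and less RNA per cell cannot be told apart. No day of collection or hybridisation is given for the groups, so time and any such batch cannot be told apart.

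**Figure D2:**
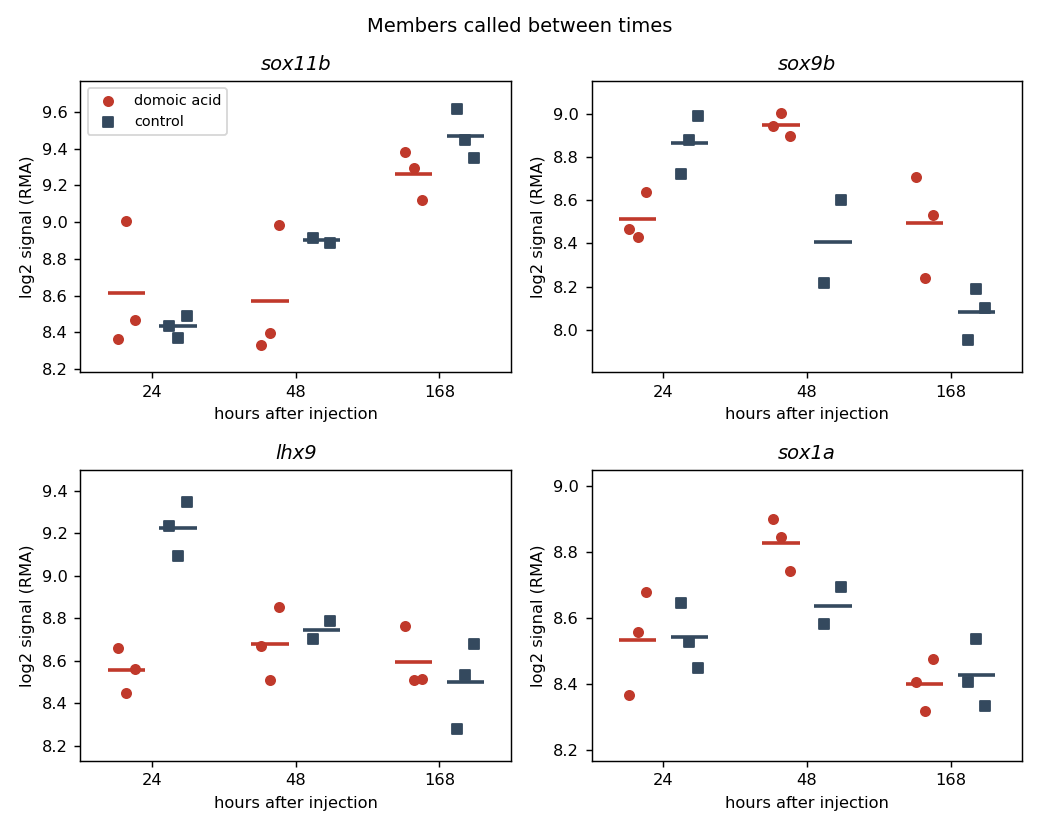
Log2 signal (vertical axis) of sox11b, sox9b, lhx9 and sox1a at 24, 48 and 168 h after injection, each point an array (pool of brains) and each bar a group mean, DA in red at left and control in dark blue at right of each time. At 168 h all sox11b values exceed 9.11, and lhx9 in 24 h controls stands at 9.09 or more.

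Sox11b is a SoxC factor of newborn neurons. Its signals at 168 h were 9.38, 9.29 and 9.12 in DA brains, against 9.62, 9.45 and 9.35 in control brains. At 24 h they were 8.36, 9.01 and 8.47 in DA brains, against 8.44, 8.37 and 8.49 in control brains. Both treatments stood higher at 168 h with no overlap. In controls the 168 h level was 2.05-fold the 24 h level (log2 difference 1.04 ± 0.17, limma adjusted p = 0.017), and in DA brains 1.57-fold (0.65 ± 0.17, adjusted p = 0.19). The other probe sets for sox11b gave 0.61 (adjusted p = 0.046) and 1.02 (adjusted p = 0.22) for the same control difference. Its duplicate sox11a gave -0.20 (adjusted p = 0.78).

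Sox9b, a SoxE factor of radial glia and astroglia, ran the other way in controls. Its control signals were 7.95, 8.19 and 8.10 at 168 h, against 8.72, 8.88 and 8.99 at 24 h, a fall of 1.72-fold (log2 difference -0.78 ± 0.13, limma adjusted p = 0.017). DA brains held 8.47, 8.43 and 8.64 at 24 h, 8.95, 9.002 and 8.90 at 48 h and 8.71, 8.24 and 8.53 at 168 h, and control brains held 8.22 and 8.60 at 48 h. The DA arrays were therefore below the controls at 24 h and above them at 48 and 168 h, with no overlap at any time. The estimates were -0.35 ± 0.13, 0.54 ± 0.14 and 0.41 ± 0.13 (limma adjusted p = 0.26, 0.72 and 1.0), none past the threshold. At 48 h the estimate was 0.35 without control replicate 1. A second, dimmer sox9b probe set gave 0.12 for control 168 minus 24 h (adjusted p = 0.74), and the mean of both gave -0.33 (adjusted p = 0.12), so the call rests on 1 probe set. For DA minus control that second set gave -0.08, 0.02 and -0.20 at 24, 48 and 168 h.

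Lhx9, a LIM-homeodomain factor of the thalamus and pretectum, was highest in 24 h controls. Its signals were 8.66, 8.45 and 8.56 in DA brains, against 9.23, 9.09 and 9.35 in control brains at 24 h. At 48 h they were 8.67, 8.51 and 8.85 in DA brains, against 8.70 and 8.79 in control brains, and at 168 h 8.77, 8.51 and 8.51 in DA brains, against 8.28, 8.54 and 8.68 in control brains. Among controls lhx9 fell by 0.73 ± 0.12 between 24 and 168 h (log2 scale, limma adjusted p = 0.017), a 1.66-fold lower level. Among DA brains the difference was 0.04. Thus its 3 control arrays of 24 h were the ones apart, and every other array lay between 8.28 and 8.85.

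The 4 genes called between 24 and 168 h in controls are 2.65% of members, and 0.603% of all genes were called there. In the test over 3 times the same 4 were called among controls, against 0.535% of genes, and 1 member among DA brains (0.662%), against 1.65% of genes. Between 48 and 168 h of DA, 1.42% of genes were called, and 2 members (1.32%), among them sox1a, a SoxB1 progenitor factor. Sox1a had 8.41, 8.32 and 8.48 at 168 h in DA brains, against 8.90, 8.84 and 8.74 at 48 h, a difference of -0.43 ± 0.10 (limma adjusted p = 0.048). That call held without control replicate 1 or 3 or DA replicate 1 or 3 of 24 h, and was lost without any other single array and with a replicate block (adjusted p = 0.079). The mean over all sox1a probe sets gave -0.17 (adjusted p = 0.46). Between 24 and 168 h of DA 1 member (0.662%) was called, against 0.307% of genes. Lhx9, sox11b and sox9b lost their control calls when some control arrays were left out: adjusted p without control replicate 1 at 168 h was 0.094 for lhx9, 0.093 for sox11b and 0.093 for sox9b. Without control replicate 3 at 24 h it was 0.074 for lhx9 and for sox9b and 0.057 for sox11b. Without control replicate 2 at 168 h it was 0.065 for lhx9 and for sox11b. Lhx9 (0.052) and sox11b (0.051) also missed it without control replicate 1 at 24 h, and sox9b (0.051) and sox11b (0.054) without control replicate 2 at 24 h. The hybridisation spike-in level moved with time in controls, at 9.55 to 9.71 at 168 h, against 10.39 to 10.96 at 24 h. It also differed between treatments at 48 h, with 9.27, 9.40 and 9.37 in DA brains, against 10.79 and 9.70 in control brains. At 24 h DA brains had 10.56, 10.09 and 9.49, which overlapped the controls, as did 10.02, 9.54 and 9.44 at 168 h. With that level as a covariate, sox11b, sox9b and lhx9 were not called. With both doubted 24 h arrays removed, 7 members were called between 24 and 168 h in controls: these 4, irx5a, pbx4 and zic2a.

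Zic2a, a zinc finger factor of dorsal brain and cerebellum, was next. Its control signals were 11.31, 11.19 and 11.21 at 168 h, against 11.96, 11.68 and 11.66 at 24 h, a difference of -0.54 ± 0.12 (limma adjusted p = 0.062). Control arrays of the 2 times did not overlap for 27 members, 17.9%, against 17.5% of all genes. In DA brains the same count was 18 members, 11.9%, against 14.1%. Both shares are near those of genes at large.

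For DA against control at 24 h, 0 members were called at an adjusted p under 0.05, as was 0.0114% of all genes. At an unadjusted limma p under 0.05 there were 9 members higher (5.96%, against 5.5% of genes) and 17 lower (11.3%, against 7.86% of genes), 26 in all or 17.2%, against 13.4% of all genes. Arrays did not overlap in the upward direction for 6 members (eomesa, nkx2.1, six7, sox17, sox19b and sox32), against 4.8% of genes, and in the downward direction for 15, against 7.68% of genes. Of the 6, nkx2.1, six7, sox17 and sox32 lay at or under the blank probe level, and sox19b (mean 5.34) close to it. The median change was 0.01 over members and 0.01 over all genes. The gene nearest to the threshold was lhx9, with -0.67 ± 0.12 or 1.59-fold lower (limma adjusted p = 0.068). It passed without DA replicate 1 of 24 h (-0.72, adjusted p = 0.020), control replicate 2 of 24 h (0.0497) or DA replicate 1 of 168 h (0.020), and without both doubted arrays (-0.66, adjusted p = 0.037).

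Pax2a, a paired-box factor of the midbrain-hindbrain boundary, had 6.03, 6.04 and 6.43 in DA brains at 24 h, against 7.21, 6.78 and 7.47 in control brains. The groups did not overlap, and the estimate was -0.99 ± 0.24, or 1.99-fold lower (limma adjusted p = 0.12). A second, dimmer pax2a probe set gave 0.18, with its highest value on DA replicate 1 of 24 h (6.73). DA replicates 2 and 3 (6.244 and 6.098) lay within its 24 h control range of 5.936 to 6.298. The higher estimate of that second set therefore rests on DA replicate 1, and the set did not share the fall. Foxk1, a widely expressed fork head repressor tied to metabolism, had 7.15, 7.33 and 7.47 in DA brains, against 8.37, 8.01 and 8.05 in control brains, an estimate of -0.82 ± 0.19 (adjusted p = 0.12). Both passed when DA replicate 1 of 168 h was left out (adjusted p = 0.023 for pax2a and 0.011 for foxk1).

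Pbx and Meis, factors of the TALE homeodomain class, bind DNA together with Hox and other homeodomain proteins. The list holds Pbx and Meis genes only, and the Irx genes were not counted in it. Of the 9 measured, 7 had lower estimates at 24 h, where 47.7% of all genes did. Their median was -0.21, against 0.01 over all genes. An unadjusted limma p under 0.05 was reached by 4 of the 9, all lower, against 7.86% of genes. Pbx1a had 8.24, 8.24 and 7.94 in DA brains, against 8.79, 8.66 and 8.33 in control brains, with no overlap and an estimate of -0.45 ± 0.13 (adjusted p = 0.16). Its other probe sets gave -0.50 and -0.54. Pbx3b had 9.43, 9.35 and 9.44 in DA brains, against 10.01, 9.64 and 10.23 in control brains, and gave -0.55 (adjusted p = 0.18). Without both doubted arrays pbx3b gave -0.42. The median of the list was -0.12 without DA replicate 1 at 24 h and -0.07 without both doubted arrays, where pbx1a alone of the list was called (-0.64, adjusted p = 0.036). At 48 h 6 of 9 and at 168 h 6 of 9 were lower, against 44.8% and 56.5% of genes, with medians of -0.06 and -0.07, and without control replicate 2 the 48 h count was 4 of 9 (median 0.04).

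**Figure D3:**
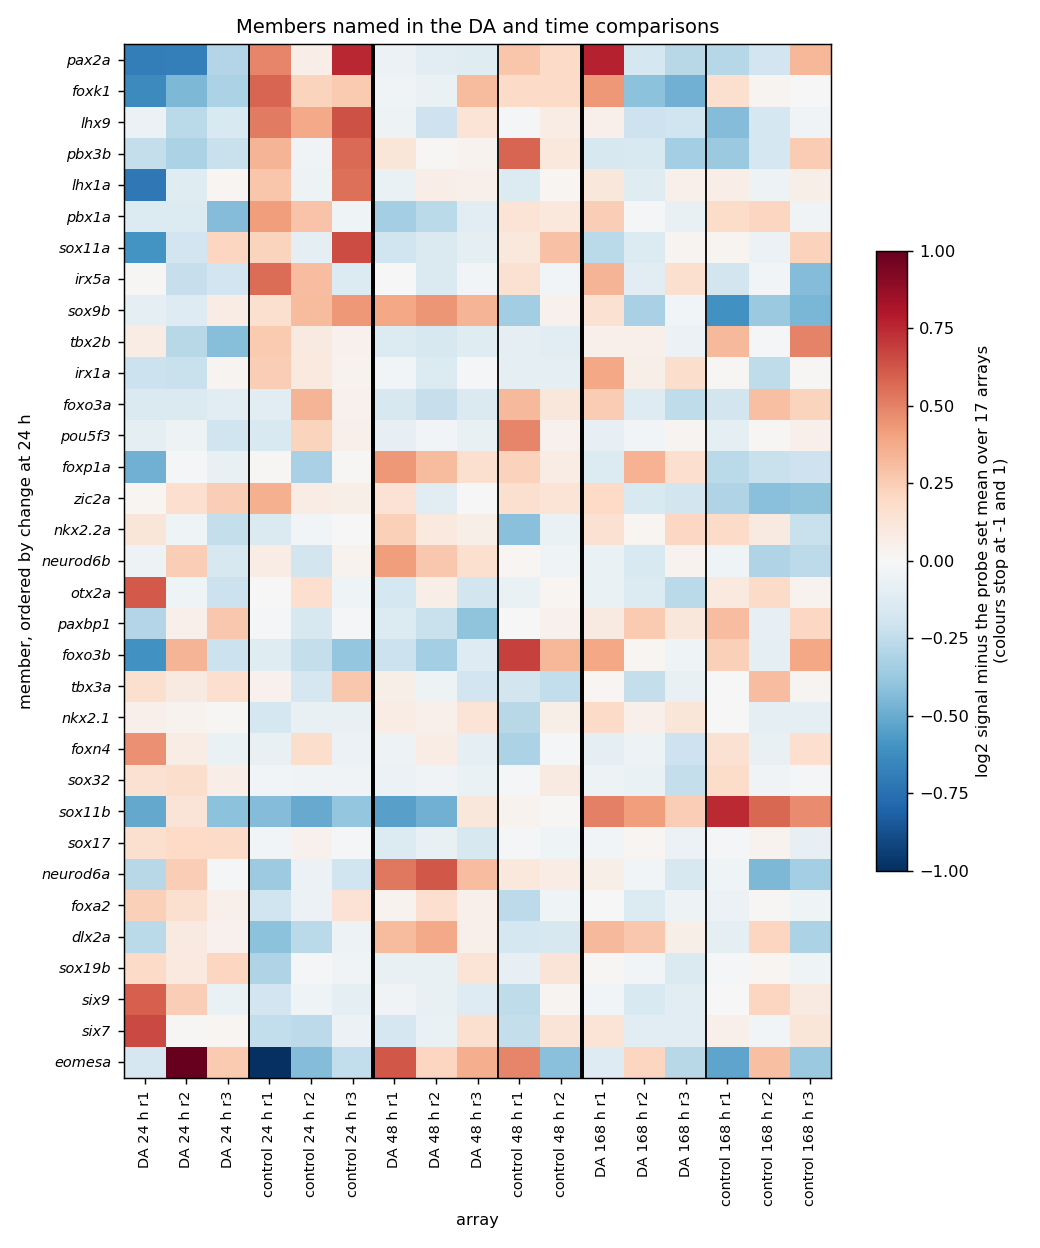
Log2 signal minus each probe set's mean over 17 arrays (colour, stopping at -1 and 1) for members named in the DA and time comparisons, with arrays in columns by time and DA left of control. Rows run from the lowest to the highest DA minus control change at 24 h, with pax2a at -0.99 at the top and eomesa at 0.95 at the bottom.

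No telencephalic factor passed the test for DA at any time. Of the 11 measured, 9 had higher estimates at 24 h (median 0.20), 10 at 48 h (median 0.16) and 4 at 168 h (median -0.01), while 52.3%, 55.2% and 43.5% of all genes had higher estimates at those times. Eomesa (Tbr2), a T-box factor of pallial neurons and their precursors, had 6.61, 7.86 and 7.03 in DA brains at 24 h, against 5.78, 6.34 and 6.53 in control brains. DA replicate 2 was the highest and the groups did not overlap, with an estimate of 0.95 ± 0.31 (limma adjusted p = 0.21). It was 0.60 without DA replicate 2, 1.23 without DA replicate 1 and 1.39 without both doubted arrays (adjusted p = 0.053). Emx1 and emx3, pallial homeobox factors, had estimates of 0.42 and 0.36 at 24 h, with their highest value on DA replicate 1 (6.61 and 6.94). Without that array they were -0.09 and -0.03. Emx2, of the same family and the brightest of the 11 (mean 9.31), went the other way. It had 9.125, 9.175 and 9.183 in DA brains at 24 h, against 9.429, 9.421 and 9.448 in control brains. The groups did not overlap, and the estimate was -0.27, or -0.25 without DA replicate 1. A second, dimmer emx2 probe set gave -0.10. Without DA replicate 1 the 24 h count was 7 of 11 with a median of 0.02, and with the blank probe level as a covariate 5 of 11 with a median of -0.01.

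**Figure D4:**
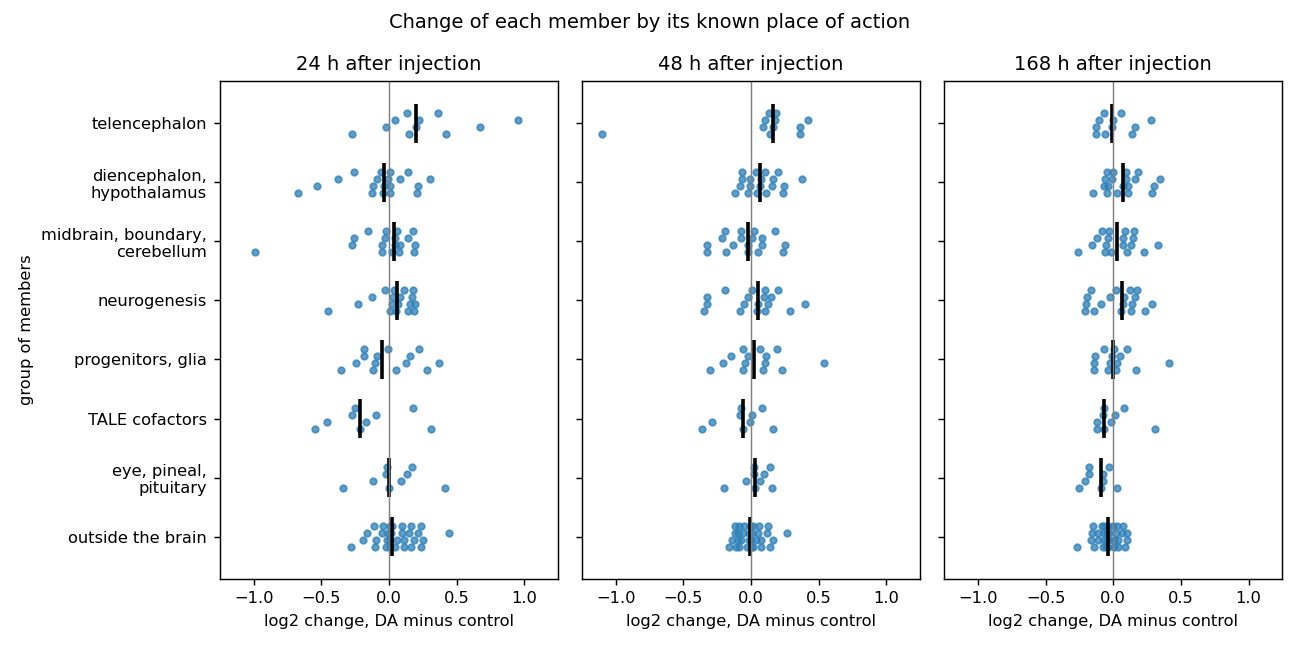
DA minus control log2 change of each member (point) at 24, 48 and 168 h, in rows by known place of action, with black bars at the median of the row. Telencephalic members have medians of 0.20, 0.16 and -0.01, and TALE cofactors (Pbx and Meis only) -0.21, -0.06 and -0.07. The 9 members in no list, the 8 broadly expressed factors and the 5 that only share a prefix are not drawn.

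At 48 h, 0 members were called and 0.0% of genes were. At an unadjusted limma p under 0.05 there were 6 members higher (3.97%, against 3.64% of genes) and 5 lower (3.31%, against 1.87% of genes), 7.28% in all against 5.5%. With 2 control arrays, non-overlap is common: 22 members lay wholly above and 27 wholly below the controls, against 15.8% and 12.0% of genes. Dlx2a, a homeobox factor of GABAergic precursors in the subpallium, had 6.70, 6.76 and 6.43 in DA brains, against 6.203 and 6.218 in control brains, an estimate of 0.42 ± 0.16 (limma adjusted p = 0.98). The related dlx5a and dlx2b gave 0.36 and 0.18, and dlx5a gave 0.11 without control replicate 1. In all, 9 of the 11 telencephalic estimates were higher without either control array, with medians of 0.07 without control replicate 1 and 0.25 without control replicate 2.

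NeuroD6 factors belong to maturing and mature excitatory forebrain neurons. Neurod6a had 10.43, 10.52 and 10.21 in DA brains at 48 h, against 10.01 and 9.98 in control brains (0.40 ± 0.16, limma adjusted p = 1.0). Neurod6b had 9.88, 9.73 and 9.62 in DA brains, against 9.48 and 9.43 in control brains (0.29 ± 0.13, adjusted p = 1.0). The groups did not overlap for either copy. Over the 17 arrays the copies moved together (r = 0.77, a description over arrays that share groups), the highest among 28 a and b pairs. Neurod1 gave -0.33 at 48 h, with 11.46, 11.44 and 11.67 in DA brains, against 11.94 and 11.77 in control brains. The 5 NeuroD genes all had higher estimates at 24 h (0.04 to 0.19), 4 of 5 at 48 h and 4 of 5 at 168 h, and none passed. Of all genes, 52.3%, 55.2% and 43.5% had higher estimates at those times. Without both doubted arrays neurod1 (-0.01) and neurod2 (-0.23) were lower at 24 h.

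FoxO factors switch on stress resistance, atrophy and cell death genes when insulin signalling is low. Foxo3b had 9.88, 9.76 and 9.97 in DA brains at 48 h, against 10.78 and 10.43 in control brains, an estimate of -0.73 ± 0.22 (limma adjusted p = 0.78). Its copy foxo3a had 6.25, 6.18 and 6.27 in DA brains, against 6.74 and 6.52 in control brains, an estimate of -0.40. For these probe sets every DA array was below both controls at 48 h. A second foxo3b probe set gave -0.04, and the other foxo3a probe sets gave -0.33 and -0.34. The foxo3a set used carries the suffix for probes that can bind related transcripts. At 24 h foxo3a gave -0.23 and foxo3b 0.09. Foxo3b then had 9.491, 10.434 and 9.885 in DA brains, against 9.975, 9.858 and 9.71 in control brains. Its control signals at 168 h were 10.333, 10.009 and 10.487. Hypothalamic nkx2.2a had 6.26, 6.12 and 6.09 in DA brains, against 5.61 and 5.96 in control brains at 48 h (0.38, and 0.20 without control replicate 1). Pou5f3, the fish Oct4 relative, had 4.62, 4.67 and 4.63 in DA brains, against 5.19 and 4.75 in control brains (-0.33, and -0.10 without control replicate 1).

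**Figure D5:**
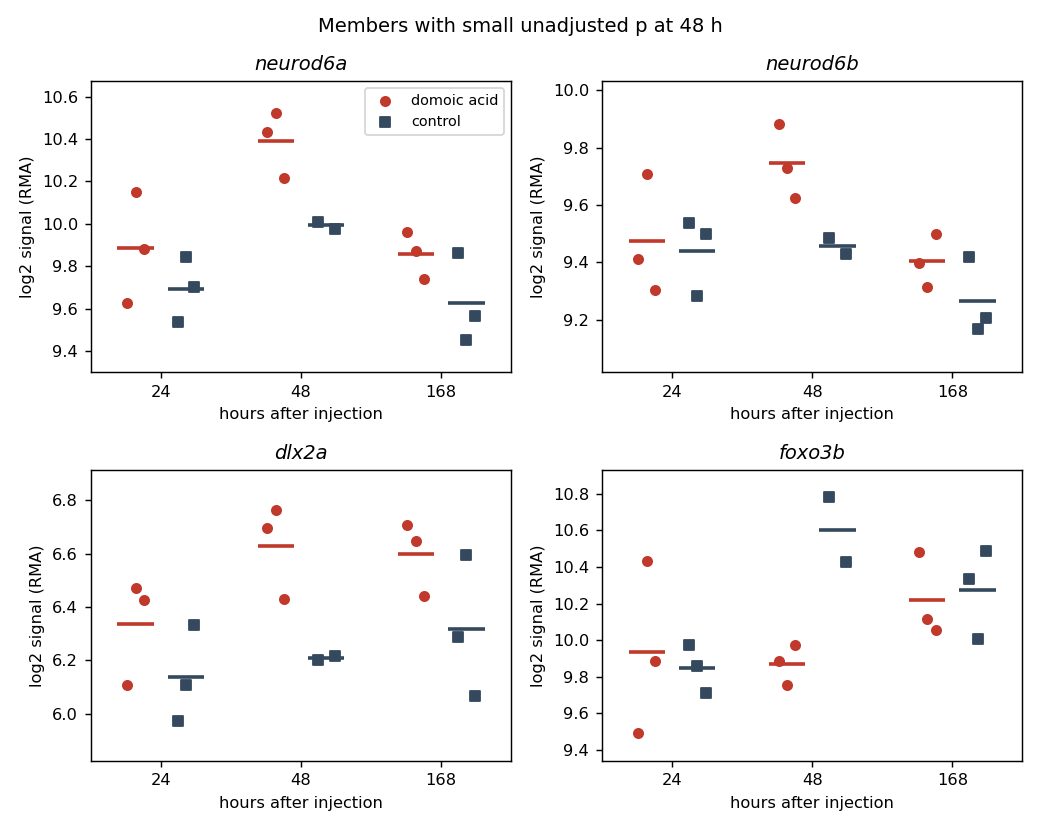
Log2 signal (vertical axis) of neurod6a, neurod6b, dlx2a and foxo3b at 24, 48 and 168 h, each point an array and each bar a group mean, DA in red at left and control in dark blue at right of each time. At 48 h the DA points lie above the controls for the first 3 genes and below them for foxo3b, where they stay under 9.98.

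At 168 h, 0 members were called and 0.0% of genes were. An unadjusted limma p under 0.05 was reached by 4 members, 2.65% against 3.12% of genes. All 4 were higher, against 1.15% of genes, and 0 were lower, against 1.97%. They were sox9b, zic2a, irx1a and foxp1a. Zic2a had 11.81, 11.46 and 11.43 in DA brains, against 11.31, 11.19 and 11.21 in control brains (0.33, limma adjusted p = 1.0), and 0.21 without DA replicate 1. Irx1a, an Iroquois factor of the diencephalon and hindbrain, had 8.78, 8.45 and 8.57 in DA brains, against 8.40, 8.14 and 8.40 in control brains (0.29). At 24 h irx1a had been lower, with 8.18, 8.17 and 8.42 in DA brains, against 8.64, 8.49 and 8.43 in control brains (-0.26). Foxp1a, of striatal and cortical projection neurons in mammals, had 5.83, 6.32 and 6.14 in DA brains, against 5.71, 5.75 and 5.76 in control brains (0.36). Arrays did not overlap upward for 7 members, against 3.76% of genes, and downward for 5, against 6.96% of genes.

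Factors of eye, pineal and pituitary had lower estimates at 168 h in 8 of 9 cases, where 56.5% of all genes did. Their median was -0.09, against -0.02 over all genes. Several were near the blank probe level: tbx4 (4.87), six7 (4.94), otx5 (5.02), lhx2a (5.16) and lhx3 (5.18). That level was 5.11, 5.04 and 4.94 in DA brains at 168 h, against 5.14, 5.10 and 5.18 in control brains. All genes at or below the median gene had median deviations of -0.006, -0.015 and -0.065 there, against 0.008, 0.017 and 0.007. So the share of all genes is no like comparison here or for the dim markers below. The part of the floor was not tested. Tbx2b gave -0.25, tbx3a -0.21 and six7 -0.07. One array moved these by over 1.5 times: tbx2b was -0.14 without control replicate 3, tbx3a -0.11 without control replicate 2 and six7 -0.03 without DA replicate 2. Of the retinal and pineal markers, 14 of 14 had lower estimates at 168 h (median -0.23), against 56.5% of all genes. At 24 h, where 52.3% of genes had higher estimates, 13 of 14 of these markers did (median 0.24). Their mean level was 5.26 to 5.44 in DA brains, against 5.63 to 5.87 in control brains at 168 h. At 24 h it was 5.50 to 6.29 in DA brains, with DA replicate 1 the highest, against 5.39 to 5.58 in control brains. No marker is at 0 on this scale, and their part in the members' values was not tested.

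Averaged over the 3 times, 0 members were called, and 0.0% of genes were. At an unadjusted limma p under 0.05, 8 members were higher (5.3%, against 2.66% of genes) and 13 lower (8.61%, against 4.71%), 13.9% in all against 7.37% of genes. The smallest p belonged to pbx1a (-0.29 ± 0.08, adjusted p = 0.19), followed by dlx2a (0.30 ± 0.09, 0.24), foxk1 (-0.38 ± 0.12, 0.27), neurod6a (0.27 ± 0.08, 0.28) and pbx3b (-0.32, 0.28). Pbx1a was lower and neurod6a and dlx2a higher in DA brains at each of the 3 times. The pbx1a set used carries the suffix for probes that can bind related transcripts. Of its other probe sets, 1 gave 0.02 and 0.13 at 48 and 168 h, and the other -0.16 and -0.10. For the change of the DA effect with time, 0 members and 0.0% of genes were called. Among the smallest p were those of sox9b and lhx9, each with a limma adjusted p of 0.74. At an unadjusted p under 0.05 there were 13 members, 8.61% against 6.96% of genes. DA arrays lay wholly on opposite sides of the controls at different times for 6 members (irx1a, sox17, sox2, sox32, sox9b and tbx20), 3.97% against 2.83% of genes. Of these, sox17, sox32 and tbx20 lay under the blank probe level.

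By place of action, the remaining groups showed no call against control. Diencephalic and hypothalamic members (19) had medians of -0.03, 0.07 and 0.07 at 24, 48 and 168 h, midbrain and cerebellar members (18) 0.03, -0.02 and 0.03, and factors of neurogenesis (18) 0.06, 0.05 and 0.07. For neurogenesis 11 of 18 were higher at 48 h, where 55.2% of all genes were. Without control replicate 1 the count for neurogenesis was 6 of 18 (median -0.01). Progenitor and glial members (14) had medians of -0.05, 0.02 and -0.00. Sox2, a factor of neural stem cells, gave -0.18, -0.15 and 0.16, and 0.04 at 24 h without DA replicate 1. With all arrays, other, dimmer sox2 probe sets had the opposite sign at each time. They gave 0.28 and 0.40 at 24 h, 0.13 and 0.22 at 48 h, and -0.14 and -0.20 at 168 h. Both had their highest value on DA replicate 1 of 24 h (6.345 and 7.323). The first set had 5.722 and 5.981 on DA replicates 2 and 3, against 5.631, 5.788 and 5.789 in control brains. The second had 6.756 and 6.479, against 6.671, 6.705 and 5.99. Without DA replicate 1 the dimmer sets thus stayed higher on average, and the set used took their sign (0.04). The opposition at 24 h therefore rests on that array through the set used. The 31 members known mainly from other tissues had medians of 0.02, -0.01 and -0.04. The 8 broadly expressed fork head and POU members had -0.20, -0.12 and -0.12, with 6, 5 and 6 of them lower. Of all genes, 47.7%, 44.8% and 56.5% were lower at those times. The 24 h median of these 8 without DA replicate 1 is not given.

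Zebrafish keep many of these genes as pairs from a genome duplication, and 28 pairs had both copies measured. Copies had estimates of the same sign in 10 of 28 pairs at 24 h, 15 at 48 h and 15 at 168 h. Correlations of the copies over 17 arrays ran from -0.54 (sox4a and sox4b) to 0.77, with a median of 0.13. Some pairs set a brighter copy against one near the floor, such as lhx1a (7.73) and lhx1b (4.82) or dlx2a (6.38) and dlx2b (4.50). DA replicate 1 of 24 h also moved dim and bright members apart. On it sox4a had its lowest value (9.266) and sox4b its highest (6.672). The counts and correlations without that array are not given, so they do not show that copies diverged. At 24 h, lhx1a, of hypothalamus and other brain nuclei, gave -0.53 (7.01, 7.61 and 7.75 in DA brains, against 8.001, 7.67 and 8.28 in control brains) and lhx1b gave 0.08. Lhx1a gave -0.31 and lhx1b -0.01 without DA replicate 1, and lhx1a gave -0.16 without both doubted arrays (limma adjusted p = 0.57). Other, dimmer lhx1a probe sets gave 0.004 and -0.05 at 24 h, so the contrast with lhx1b rests on the lhx1a set used.

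Other neural transcription factors outside the symbol rule gave a similar picture. Of 58 measured, 0 were called for DA at any time, with medians of 0.04, 0.02 and -0.01. At an unadjusted limma p under 0.05 there were 6 higher and 4 lower at 24 h, against 5.5% and 7.86% of genes, and 3 higher and 0 lower at 48 h, against 3.64% and 1.87%. Tbr1b, a T-box factor of pallial neurons, had the smallest p at 48 h with an estimate of 0.74 (adjusted p = 0.73), and was the 1 gene of the list called over time among DA brains (adjusted p = 0.016). Id4, an inhibitor of differentiation in adult radial glia, gave -0.39 at 24 h (adjusted p = 0.19).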

How the data were processed

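Brain pools were hybridised to 17 Affymetrix Zebrafish Genome arrays. The deposited log2 signals per probe set are the authors' own. Tools named per the submitters' processing notes are oligo, RMA and limma, without versions in the sources used here. RMA gives the probe intensities of all arrays 1 distribution before summary, so much of a shift shared by most genes is removed. The probe set values still differed somewhat, with array medians from 6.11 to 6.23. The table held 15617 probe sets; 115 manufacturer controls were set aside as quality measures, and the 15502 left entered the fit whatever their signal. Gene symbols are those of the platform annotation, and an Entrez number matched all 195 member probe sets. Among chosen probe sets, 10 carry a suffix for probes that can bind several transcripts, either of the same gene or of related genes.

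A limma 3.58.1 fit (R 4.3.3) held 1 mean per group, unpaired, with 11 residual and 4.39 prior degrees of freedom. Moderated tests were two-sided, F tests covered time, and adjustment was by Benjamini-Hochberg across the 15502 probe sets. The scripts were tested on simulated data. P-values measure the spread between pooled samples, and the number of arrays limits the precision.

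Named genes were those with the smallest p in each comparison and direction, the brightest of each family, a set of well-known factors, and duplicates of these. Members and lists were chosen with earlier results of these data known. Alternatives were other normalisations, a filter on level, variance priors, array weights, a replicate block, quality covariates and single-array removal. Removal of both doubted 24 h arrays was chosen after seeing the data. Some members, 1 of the 4 called over time in controls included, enter the counts but are not reported here by name. Sequences and gene positions are not used here.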

Additional observations from a re-analysis of the deposited data

Results flagged for a closer look

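In 6 members the DA arrays lay wholly on one side of the controls at one time and wholly on the other at another time, 3.97% of members against 2.83% of all genes. None of the differences passed an adjusted p of 0.05 (limma). Sox9b differed most: its DA effect changed by 0.89 between 24 and 48 h (adjusted p = 0.50) and by 0.76 between 24 and 168 h (adjusted p = 0.54). A second, dimmer sox9b probe set did not share this, with DA effects of -0.08, 0.02 and -0.20 at 24, 48 and 168 h. Irx1a changed by 0.55 between 24 and 168 h (adjusted p = 0.54), and tbx20 by 0.29 between 24 and 48 h (adjusted p = 0.77). Sox17 changed by -0.28 between 24 and 48 h (adjusted p = 0.71). Sox32 changed by -0.26 between 24 and 48 h (adjusted p = 0.78) and by -0.32 between 24 and 168 h (adjusted p = 0.55). The mean signals of tbx20, sox17 and sox32 lay under the blank probe level, near the floor. Sox2 changed by 0.31 between 48 and 168 h (adjusted p = 1.0). Other, dimmer sox2 probe sets gave 0.13 and 0.22 at 48 h and -0.14 and -0.20 at 168 h, opposite in sign to the set used. Groups had 2 or 3 arrays, too few to test a single array as an outlier.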

How the results depend on the processing

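The members of smallest p, refitted under every alternative, kept their direction. Of 19 smaller estimates printed and recomputed without single arrays alone, 7 changed sign, all at 24 h (emx1, emx3, sox2, lhx1b, neurod1, neurod2 and neurod6b). Of the refitted comparisons of single members 1549 kept their side of the threshold, 52 lost it and 15 gained it. Most of these comparisons were not called with all arrays, so most could only keep their side or gain a call. The 52 losses all came from the few comparisons called over time, those of sox1a, sox11b, sox9b and lhx9 among them. The pooled count therefore does not measure how stable the calls were. Counts of called members moved as follows, with causes not tested. For DA against control at 24 h the count of 0 became 1 with median centring, probe sets above the median level, array weights, the blank level as covariate or an adjusted p under 0.10, and 2 without both doubted arrays. For the mean of the 3 times 0 became 3 with array weights and 1 without both doubted arrays. Time among controls (4) gave 1 with the spike-in covariate, 0 with the GAPDH covariate and 2 with only those groups. Time among DA brains (1) gave 2 with an intensity trend and robust variances, 17 with array weights, 3 with the blank covariate, 2 with gene means, 6 at an adjusted p under 0.10 and 5 without both doubted arrays. Control 168 minus 24 h (4) gave 1 with the spike-in and 1 with the GAPDH covariate, and 7 without both doubted arrays. DA 168 minus 24 h (1) gave 0 with median centring, the blank covariate or without both doubted arrays. DA 168 minus 48 h (2) gave 1 with median centring, trend and robust variances, the spike-in covariate or the probe set of highest SD, 14 with array weights, 5 with the blank covariate, 5 at an adjusted p under 0.10 and 7 without both doubted arrays.

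Counts of members without overlap fell under the filter on level to 1 (24 h, higher), 12 and 16 (48 h, higher and lower), 4 and 0 (168 h, higher and lower). At 168 h they were 4 higher with gene means and 3 lower with median centring. The filter kept only probe sets above the median level, so fewer members could be counted under it. Shares of the members left are not given, so the fall does not show a lower rate.

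Leaving out single arrays gave 0 to 3 calls for DA at 24 h, 0 to 2 for the mean, 0 to 5 for time among controls, 1 to 4 for time among DA brains, 1 to 5 for control 168 minus 24 h, 0 to 1 for DA 168 minus 24 h and 1 to 7 for DA 168 minus 48 h. Counts without overlap ran from 8 to 21 (24 h higher), 18 to 27 (24 h lower), 29 to 69 (48 h higher), 33 to 51 (48 h lower), 11 to 17 (168 h higher) and 9 to 21 (168 h lower), where fewer arrays have to lie apart. For these counts and the calls under the alternatives, shares over all genes in the same setting are not given. The counts therefore do not set members apart from other genes.

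No strong pairing by replicate number was seen: correlations of deviations between same-numbered arrays ran from -0.33 to 0.22. With so few arrays per group these values cannot show that the samples were unpaired. With the replicate block, time among DA brains gave 3 calls and DA 168 minus 24 h gave 0, and other counts stayed within 1.5 times. Within these counts, sox11b lost its call over time among controls, and meis2b was called in place of sox1a for DA 168 minus 48 h. Of 151 members, 89 were at or below the median gene, whose level (6.66) lay above the mean of the blank probe sets on every array. That count is therefore no count of members near the floor.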
